A study of Homo sapiens with 14 samples.

Results

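The genes described here encode the working parts of the lysosome. They are 52 genes taken by symbol from a fixed list: 15 hydrolases of sugar chains and sulfate esters, 12 proteases, 8 lipid enzymes and carriers, 6 membrane proteins, 8 subunits of the proton pump (the V-ATPase, counting its accessory protein ATP6AP1) and 3 transcription factors. The rule names genes by function and uses no threshold on a measured value. Each of the 52 symbols matched 1 Ensembl identifier among the 60683 in the count tables.

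Lysosomes are acidic compartments in which proteins, lipids and sugar chains are broken down. Their soluble hydrolases are made in the endoplasmic reticulum and delivered mostly by mannose phosphate receptors, and the V-ATPase pumps protons to keep the low pH at which these enzymes work. Many lysosomal genes carry short E-box elements near their start sites and are under the control of the related transcription factors TFEB, TFE3 and MITF, which the kinase mTORC1 keeps in the cytoplasm when nutrients are plentiful. The senescence-associated β-galactosidase stain, with which senescent cells are commonly detected, reads the activity of the lysosomal enzyme encoded by GLB1 at a pH at which most cells do not stain.

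RNA was measured in 2 human cancer cell lines, each a single established line. A549, a lung cancer line, was left untreated, treated for 10 days with 2 μM palbociclib (a CDK4 and CDK6 inhibitor), with 0.5 μM indisulam (a sulfonamide that directs the splicing factor RBM39 to degradation) or with both drugs at these doses, or treated for 7 days with 0.5 μM PF-06873600 (described as an inhibitor of CDK2, CDK4 and CDK6). SUM159, a triple negative breast cancer line, was left untreated or treated for 7 days with 0.5 μM PF-06873600. Each of the 7 groups had 2 libraries, 14 in all. The submitters call these technical duplicates, so p-values measure only the spread between these libraries and not between independent cultures. The same untreated A549 libraries serve as control for the 10 day and the 7 day treatments, the day of collection and the vehicle of the untreated cells are not given in the sources used here, and the combination and PF-06873600 differ in both drug and time.

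The libraries held 13060374 to 21149256 counts on genes, so that 3 counts, taken as the smallest level a library can show, correspond to 0.142 to 0.230 CPM (the count of a gene divided by the library's total on genes and scaled to 1e+06). Replicate libraries were compared by a chi-square over genes divided by its degrees of freedom. The untreated pairs differed most, at 9.57 for A549 and 9.05 for SUM159, and the other pairs lay between 1.61 and 5.04. Of 5 epithelial markers, 4 were lower in untreated SUM159 than in untreated A549, E-cadherin (CDH1) being at 160.001 and 152 CPM in A549 and 0.181 and 0 CPM in SUM159, and 1 was higher, the keratin KRT7 with 1062 and 901 CPM in A549 and 1922 and 1833 CPM in SUM159. All 4 mesenchymal markers were higher in SUM159, where vimentin (VIM) reached 4318 and 4006 CPM. The progesterone receptor gene PGR was at or under 3 counts in every library of both lines, and the estrogen receptor gene ESR1 was at 0.302 and 0.0626 CPM in untreated SUM159. RNA of ERBB2, the third receptor by which triple negative tumours are defined, was present there at 122 and 118 CPM, beside 166 and 143 CPM in untreated A549. CLN3, a membrane protein lost in juvenile Batten disease, and ATP6V0C, which forms the proton-carrying ring of the V-ATPase, had at most 10 and 5 counts in a library. Other annotated genes on the same strand cover 100% of the exons of CLN3 and 98.8% of those of ATP6V0C. Ambiguous reads were counted apart from the genes, at 3.02% to 3.47% of the reads of a library. The genes that cover CLN3 and ATP6V0C had at most 0.0667 CPM. Reads of these 2 members may thus be missing from their counts, which do not give their levels, and neither was tested. The same kind of overlap covers 90.7% of IDS, 62.1% of CTSD and 35.7% of MAN2B1, whose counts may therefore be partial.

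The start regions of the members were searched for the E-box CACGTG and its extended form TCACGTGA, which is the core of the element shared by many lysosomal genes. Both read the same on either strand, and each extended site also counts as an E-box. RefSeq start regions (GRCh38.p14) of 300 bases, 250 before and 50 after the start, were given for 36 of the 52 members. The E-box occurred in 12 of these 36 genes, or in 24.1% of their 54 windows against 7.26% of all 35116 windows. The extended form occurred in 7 genes, or in 14.8% of the members' windows against 0.98% of all windows. The following 30-base stretches, written 5′ to 3′ on the gene's strand with the motif in capitals, are examples. They were picked with the rise of these members in SUM159 known. That rise is not particular to them, since 47 of 50 tested members rose there. ARSB, CD63, CLN3 and CTSF also had E-boxes, which are not shown. LAMP1 held 6 E-boxes in its window, and GAA and MCOLN1 had 2 extended sites each. The sites shown lie 25 (CTSA) to 174 (GALNS) bases before the RefSeq start.
LAMP1 (chr13:113297199-113297228, + strand): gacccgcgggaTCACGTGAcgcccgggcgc
GAA (chr17:80101493-80101522, + strand): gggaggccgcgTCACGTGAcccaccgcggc
MCOLN1 (chr19:7522571-7522600, + strand): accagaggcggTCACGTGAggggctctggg
CTSA (chr20:45891298-45891327, + strand): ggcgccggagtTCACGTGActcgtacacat
GALNS (chr16:88857104-88857133, - strand): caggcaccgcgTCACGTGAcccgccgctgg
ATP6V0D1 (chr16:67481199-67481228, - strand): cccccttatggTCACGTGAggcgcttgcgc
CTSD (chr11:1763957-1763986, - strand): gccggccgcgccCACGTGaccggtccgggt
NEU1 (chr6:31862930-31862959, - strand): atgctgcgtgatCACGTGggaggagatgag

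A match is a description of the letters in these windows. Of the 11 tested genes with an E-box, 11 rose with PF-06873600 in SUM159, with a median log2 fold change of 1.43. Of the 23 tested genes whose window lacked it, 20 rose, with a median of 1.06. With PF-06873600 in A549 the median was 0.27 (range -0.27 to 0.56) with and 0.03 (range -0.45 to 1.44) without the E-box, a difference that was not tested. In A549 the combination gave medians of 0.30 with and 0.29 without the E-box, and of the 6 tested members with the extended form LAMP1, MCOLN1, CTSA and ATP6V0D1 rose there while GALNS and GAA fell, the call of GAA being lost without untreated library 1 (adjusted p = 0.059).

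The fewest members passed the test with palbociclib, and the most with PF-06873600 in SUM159. Of the 50 members tested, palbociclib raised 6 and lowered 10 (adjusted p under 0.05, edgeR quasi-likelihood test with Benjamini-Hochberg adjustment over all genes tested, as for every adjusted p here), where 8.30% of the 15780 genes tested were higher and 7.40% lower. Indisulam raised 13 and lowered 18 members, against 28.0% and 17.5% of all genes. The combination raised 33 and lowered 11, against 35.1% and 30.0% of all genes. PF-06873600 raised 21 and lowered 10 members in A549, against 28.5% and 27.8%. In SUM159 it raised 47 of 50 members and lowered none (0, also with DESeq2, all 50 log2 fold changes being above 0), where 38.1% of the 15055 genes tested were higher and 35.6% lower. In bulk RNA, more cells that express a gene and more of its RNA per cell cannot be told apart.

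The median log2 fold change of the members was -0.01 with palbociclib, 0.05 with indisulam, 0.34 with the combination and 0.12 with PF-06873600 in A549, beside -0.01, 0.08, 0.05 and -0.01 over all genes tested. In SUM159 the members' median was 1.24 beside 0.02 over all genes, and 30 of the 47 raised members rose more than 2-fold. With TMM scaling the members' median under indisulam turned to -0.02 and the share of higher genes among all genes called under indisulam went from 61.6% to 50.4%, so no direction of the whole list is given for indisulam. The calls under palbociclib rested on single libraries. Without palbociclib library 2, 3 members were higher and 2 lower, and 11 of the 16 calls were lost, while IDS, NPC1, NPC2, GUSB and MITF kept theirs. Without palbociclib library 1, 3 were higher and 6 lower. Without untreated A549 library 1, 13 were higher under palbociclib and 21 under indisulam.

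**Figure D1:**
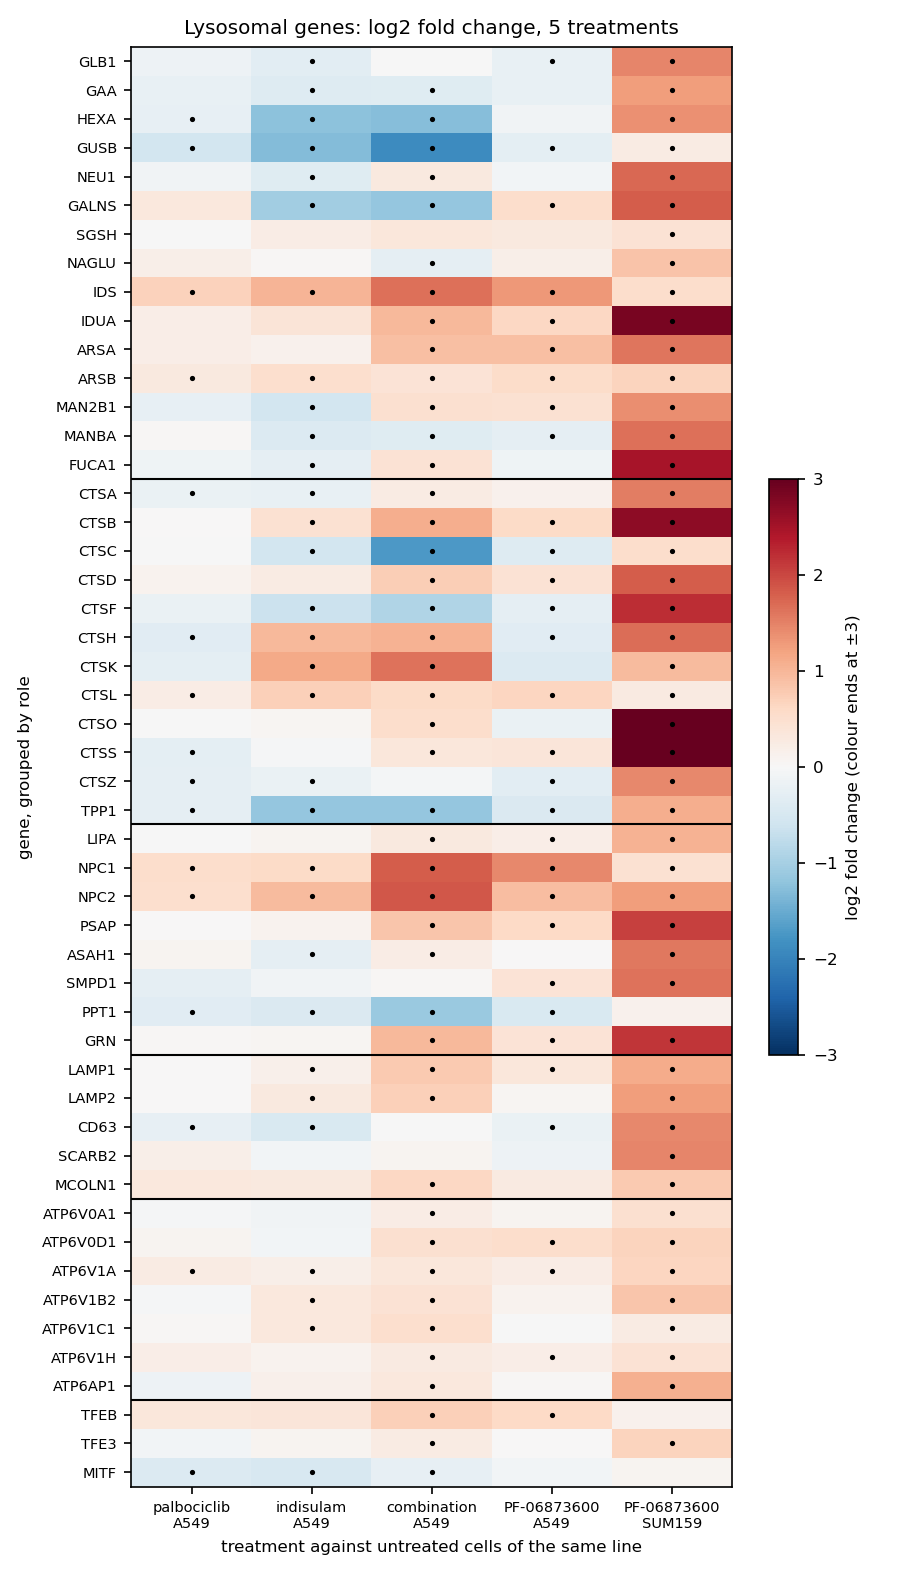
Log2 fold change of the 50 tested genes (rows, in blocks for sugar and ester hydrolases, proteases, lipid enzymes and carriers, membrane proteins, V-ATPase and transcription factors) for 5 treatments against untreated cells of the same line (columns), with 2 libraries per group. Red is higher and blue lower, colours end at ±3 (CTSO and CTSS in SUM159 lie beyond), and a dot marks an adjusted p under 0.05. The SUM159 column has 47 dots, all red, while the 4 A549 columns hold both colours, with blue for 11 genes in the combination.

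Together the 52 genes took 0.786% and 0.779% of all counts on genes in the untreated A549 libraries and 1.04% and 1.02% in the combination libraries. PF-06873600 libraries of A549 had 0.907% and 0.924%. In SUM159 the share went from 0.495% and 0.474% without treatment to 1.37% and 1.39% with PF-06873600, the highest of the 7 groups. The lipid enzymes and carriers made up most of the difference in the combination, with 0.259% and 0.254% in the untreated libraries and 0.458% and 0.441% in the treated ones. In SUM159 the proteases went from 0.125% ± 0.006 (SD, n = 2) without treatment to 0.493% ± 0.003 (SD, n = 2) with PF-06873600. In A549 the sugar and ester hydrolases were at 0.0895% and 0.0794% in the untreated libraries and at 0.0767% and 0.0756% in the combination libraries. Such sums are set by the most abundant members.

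**Figure D2:**
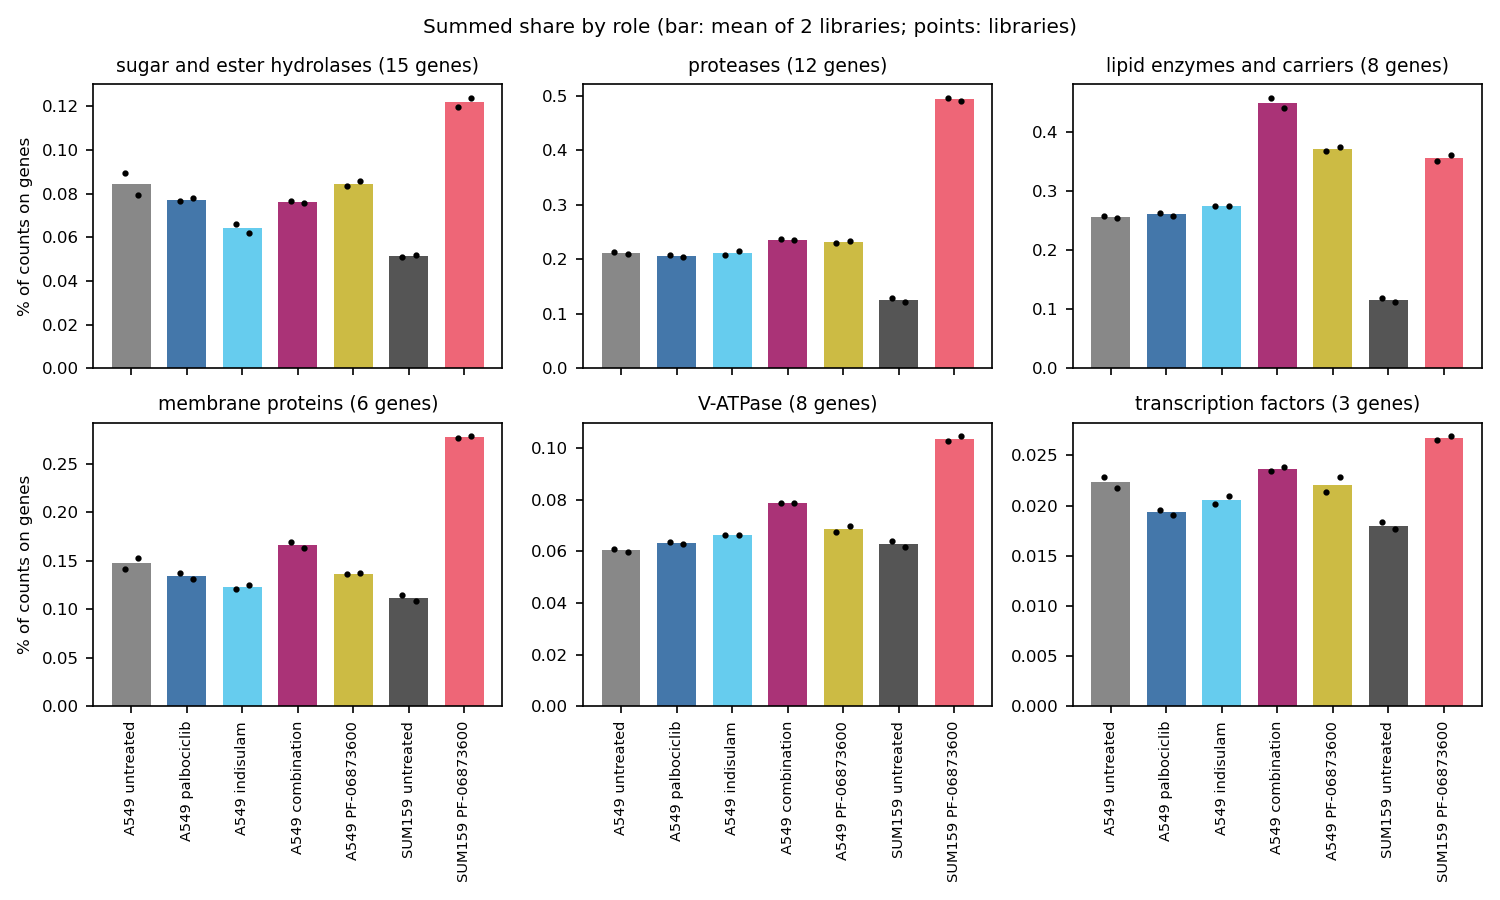
Share of all counts on genes taken by each of 6 groups of lysosomal genes (vertical axes, percent, each starting at 0) in the 7 groups of cell line and treatment. Bars are means of 2 libraries and points are the libraries. The protease bar of SUM159 with PF-06873600 reaches 0.493%, and the bar of lipid enzymes and carriers in A549 is highest with the combination, at 0.450%.

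GLB1, which encodes the β-galactosidase behind the senescence stain, was called higher in no A549 treatment against untreated cells. Its level was 184 and 188 CPM in the untreated A549 libraries, 172 and 162 CPM with palbociclib, 153 and 145 CPM with indisulam, 186 and 183 CPM with the combination and 159 and 159 CPM with PF-06873600. Untreated and combination libraries overlapped, and the libraries of the other 3 treatments lay below both untreated ones. The change with palbociclib did not pass the test (-0.16 ± 0.06 (SE), edgeR adjusted p = 0.072). The log2 difference between combination and untreated cells was -0.01 ± 0.06 (SE), edgeR adjusted p = 0.86, while indisulam lowered the gene, with a log2 fold change of -0.32 ± 0.06 (SE), edgeR adjusted p = 0.00036. PF-06873600 lowered it in A549, with a log2 fold change of -0.23 ± 0.06 (SE), edgeR adjusted p = 0.0031. In SUM159 the level was 65.7 and 68.95 CPM without treatment and 183 and 189.5 CPM with PF-06873600, and the treated libraries came to the level of untreated A549. That rise was 1.47 ± 0.06 on the log2 scale, edgeR adjusted p = 8.2e-12.

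Several other sugar-chain hydrolases fell in A549. HEXA encodes the alpha subunit of β-hexosaminidase, which is deficient in Tay-Sachs disease, and GUSB encodes β-glucuronidase. HEXA was at 133 and 123 CPM in untreated A549, at 107 and 107 CPM with palbociclib, at 56.9 and 52.9 CPM with indisulam, at 54.7 and 50.1 CPM with the combination and at 119 and 120.4 CPM with PF-06873600. The indisulam and combination libraries overlapped each other and lay far below all others. The log2 fold change of HEXA was -1.22 ± 0.07 (SE) with indisulam and -1.29 ± 0.07 with the combination, edgeR adjusted p = 5.3e-10 for the latter. Its fall with palbociclib was lost without either palbociclib library (adjusted p = 0.081 and 0.086). GUSB stepped down from 78.4 and 73.3 CPM without treatment to 50.1 and 53.2 CPM with palbociclib, 32.6 and 28.5 CPM with indisulam and 19.996 and 20.9 CPM with the combination, with no overlap between these groups. Its log2 fold changes were -0.55 ± 0.08, -1.31 ± 0.08 and -1.89 ± 0.08, the largest fall of a member in each of these 3 comparisons, and PF-06873600 also lowered it in A549 (-0.30 ± 0.08).

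GAA, the acid glucosidase that degrades glycogen and is deficient in Pompe disease, was at 172 and 129 CPM in the untreated A549 libraries, 119 and 109.9 CPM with indisulam and 118 and 117 CPM with the combination. The untreated libraries stood far apart from each other, and both lay above those of these 2 treatments. PF-06873600 libraries, at 125 and 132 CPM, overlapped the untreated ones. The fall with the combination was -0.36 ± 0.10 (SE), edgeR adjusted p = 0.005, and without untreated library 1 it was -0.14 with an edgeR adjusted p of 0.059. GALNS, a sulfatase of keratan sulfate, went from 21.003 and 16.5 CPM to 8.50 and 9.71 CPM with indisulam and 9.01 and 7.66 CPM with the combination, with a log2 fold change of -1.17 ± 0.14 in the latter. It rose with PF-06873600 in A549, to 26.1 and 27.9 CPM. The β-mannosidase gene MANBA also fell with the combination (-0.37 ± 0.07). NAGLU, which acts on heparan sulfate, also fell (-0.27 ± 0.11 (SE), edgeR adjusted p = 0.044), and lost this call without any of 3 libraries, with adjusted p up to 0.52 without untreated library 1.

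Against these falls, IDS and ARSB rose in every treatment. IDS encodes the iduronate sulfatase lacking in Hunter syndrome. It was at 11.4 and 8.33 CPM in untreated A549, 15.9 and 15.9 CPM with palbociclib, 19.2 and 21.01 CPM with indisulam, 27.9 and 34.2 CPM with the combination and 21.9 and 26.4 CPM with PF-06873600, and all 8 treated libraries lay above both untreated ones. The log2 fold change was 0.69 ± 0.16 (SE), edgeR adjusted p = 0.0084 with palbociclib, 1.03 ± 0.15 with indisulam, 1.65 ± 0.15 with the combination and 1.30 ± 0.15 with PF-06873600. In SUM159 it rose by 0.53 ± 0.11. The arylsulfatase gene ARSB rose by 0.28 ± 0.08 with palbociclib, 0.50 ± 0.08 with indisulam, 0.41 ± 0.08 with the combination, 0.56 ± 0.08 with PF-06873600 in A549 and 0.67 ± 0.07 in SUM159, and its palbociclib call was lost without any of 3 libraries (adjusted p up to 0.16). IDUA (α-L-iduronidase), ARSA (the sulfatase of sulfatide) and MAN2B1 (acid α-mannosidase) rose with the combination, by 0.98 ± 0.20, 0.90 ± 0.15 and 0.48 ± 0.09. SGSH, a sulfatase of heparan sulfate, passed the test in no A549 treatment, with 0.35 ± 0.17 in the combination.

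In SUM159 all 15 sugar and ester hydrolases rose, where 38.1% of all genes did. IDUA rose most in this group, from 1.57 and 2.63 CPM to 14.2 and 15.7 CPM, 2.84 ± 0.19 (SE), edgeR adjusted p = 3.0e-09. FUCA1, the α-fucosidase, went from 9.83 and 8.83 CPM to 52.4 and 52.2 CPM (2.48 ± 0.09). The sialidase gene NEU1 went from 42.03 and 40.2 CPM to 135 and 136 CPM (1.72 ± 0.06). HEXA rose by 1.38 ± 0.06, GAA by 1.24 ± 0.06 and GALNS by 1.82 ± 0.09. The combination lowered these members in A549, but drug, time and line all differ between these 2 comparisons. With PF-06873600 in A549, HEXA (-0.10 ± 0.06) and GAA (-0.23 ± 0.10) did not pass the test and GALNS rose (0.53 ± 0.12). The smallest rise was that of GUSB, from 40.1 and 42.5 CPM to 50.1 and 47.9 CPM, 0.25 ± 0.07 (SE), edgeR adjusted p = 0.0044, and it was lost without treated library 1 (adjusted p = 0.052).

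Of the 12 proteases, 8 rose and 3 fell with the combination, where 35.1% of all genes rose and 30.0% fell. CTSB encodes cathepsin B, an abundant cysteine protease. It was at 465 and 469.6 CPM in untreated A549, 474 and 463 CPM with palbociclib, 633 and 640.2 CPM with indisulam, 1000.4 and 979.6 CPM with the combination and 700.1 and 698 CPM with PF-06873600. The palbociclib libraries overlapped the untreated ones, and the other groups stood above them without overlap. CTSB rose by 1.08 ± 0.05 (SE), edgeR adjusted p = 1.2e-10, with the combination. CTSD, the aspartic protease cathepsin D, was at 235 and 154 CPM in untreated A549 and 332 and 321 CPM with the combination (0.75 ± 0.13), the untreated libraries again standing apart. CTSH, an aminopeptidase, went from 14.5 and 14.6 CPM to 29.3 and 27.6 CPM with indisulam and 30.7 and 29.3 CPM with the combination. CTSK, a collagen-degrading protease of low level, rose with the combination by 1.63 ± 0.23, from 2.72 and 2.13 CPM to 7.87 and 7.21 CPM.

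CTSC went the other way. It encodes dipeptidyl peptidase 1, which activates granule serine proteases. Its level was 645 and 681 CPM in untreated A549 and 656 and 656 CPM with palbociclib, groups that overlapped, then 444 and 464 CPM with indisulam, 200.1 and 202 CPM with the combination and 501 and 515 CPM with PF-06873600. The fall with the combination was -1.72 ± 0.05 (SE), edgeR adjusted p = 2.3e-12. Per length, in reads per kilobase of transcript and 1e+06 counts (RPKM), it went from 354 to 107 RPKM, or from rank 3 to rank 9 of the members. TPP1, the tripeptidyl peptidase lacking in a childhood ceroid lipofuscinosis, went from 141 and 130.1 CPM to 61.5 and 60.1 CPM with indisulam and 58.9 and 61.5 CPM with the combination, groups that overlapped each other, with log2 fold changes of -1.16 ± 0.06 and -1.17 ± 0.06. CTSF fell with the combination (-0.91 ± 0.08). CTSL, a cysteine endopeptidase, rose in every treatment, by 0.23 ± 0.06 with palbociclib, 0.70 ± 0.06 with indisulam, 0.56 ± 0.06 with the combination and 0.64 ± 0.06 with PF-06873600 in A549 and 0.27 ± 0.06 in SUM159; the first of these was lost without either palbociclib library (adjusted p up to 0.083).

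The largest change of any member was that of CTSS in SUM159. Cathepsin S is best known for processing the invariant chain in antigen-presenting cells. CTSS went from 2.53 and 1.69 CPM in untreated to 100.1 and 101 CPM in treated SUM159, a log2 fold change of 5.56 ± 0.11 (SE), edgeR adjusted p = 1.1e-14. In A549 it was at 51.7 and 60.3 CPM without treatment and 74.9 and 70.4 CPM with PF-06873600 (0.37 ± 0.08). CTSO rose from 2.89 and 2.82 CPM to 39.6 and 39.8 CPM (3.79 ± 0.11 (SE), edgeR adjusted p = 7.4e-13), and CTSB from 459 and 428 CPM to 2881 and 2848 CPM (2.69 ± 0.08), so that it became second in level per length among the members in SUM159, at 767 RPKM, behind CD63 at 874 RPKM. All 12 proteases rose in SUM159, including CTSF, CTSH, CTSC and TPP1, where 38.1% of all genes rose. The call of CTSK there was lost with DESeq2 (adjusted p = 0.10) and without treated library 2 (adjusted p = 0.11).

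Cathepsin S and several other members are also abundant in macrophages, and 5 macrophage and leukocyte markers were read beside them. All 5 (PTPRC, CD14, CSF1R, CD163 and ITGAM) were called higher in treated SUM159, where their summed level was 33.7 and 30.2 CPM against 11.9 and 12.7 CPM in untreated SUM159; CD163 was at or under 3 counts in the untreated libraries. PTPRC alone was at 9.35 and 9.90 CPM in untreated and 20.3 and 17.9 CPM in treated SUM159. In A549 the sum lay between 5.27 and 15.6 CPM, with CD163 at or under 3 counts in every library and PTPRC no higher than the 0.23 and 0.556 CPM with PF-06873600. The 2 markers that could be tested in A549, CD14 and ITGAM, were both called higher with indisulam, with the combination and with PF-06873600. Their log2 fold changes were 1.35 and 1.46 with indisulam, 0.57 and 1.51 with the combination, and 0.58 and 0.98 with PF-06873600. ITGAM had only 23 and 14 counts in the untreated libraries. Over all genes, 28.0%, 35.1% and 28.5% were higher with these treatments, and 38.1% in treated SUM159.

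Epithelial and mesenchymal markers moved with treatment as well. In SUM159, 3 of 5 epithelial markers fell and 1 rose (CDH1, from 0.181 and 0 to 0.818 and 0.662 CPM), and the keratins KRT7, KRT8 and KRT18 carried the fall of the summed level from 2676 and 2532 to 1139 and 1175 CPM. Of 4 mesenchymal markers, 2 rose and 1 fell in SUM159, their sum going from 7333 and 7776 to 17570 and 17680 CPM. In A549 with the combination, 3 epithelial markers rose and 2 fell, the sum going from 6236 and 5371 to 13140 and 12590 CPM, and 3 of 4 mesenchymal markers rose. Over all genes, 38.1% rose and 35.6% fell in SUM159, and 35.1% rose and 30.0% fell with the combination. The part of all these markers in the members' changes was not tested.

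NPC1 and NPC2 rose in all 5 treatments. NPC1 is the membrane protein that exports cholesterol from the lysosome and NPC2 the soluble carrier that hands cholesterol to it. NPC1 was at 23.9 and 22.7 CPM in untreated A549, 34.7 and 32.3 CPM with palbociclib, 34.4 and 34.6 CPM with indisulam, 80.6 and 82.6 CPM with the combination and 63.8 and 62.6 CPM with PF-06873600. NPC2 was at 46.2 and 49.998, 68.3 and 67.6, 90.1 and 96.5, 183 and 166 and 93.7 and 88.8 CPM in the same order. For both genes every treated library lay above both untreated ones, and the combination libraries were the highest of A549. The combination raised NPC1 by 1.81 ± 0.07 (SE), edgeR adjusted p = 2.4e-11, and NPC2 by 1.86 ± 0.07 (SE), edgeR adjusted p = 1.6e-11. With palbociclib alone the rises were 0.52 ± 0.08 and 0.50 ± 0.07. In SUM159, NPC1 started from 108 and 108 CPM and rose by 0.47 ± 0.05, and NPC2 rose by 1.24 ± 0.06.

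PSAP, the precursor of the saposins that help lipid hydrolases reach their substrates, was second to CD63 in level per length in untreated A549 (715 RPKM against 1006 RPKM) and first with the combination (1264 RPKM). It was at 1972 and 1959.8 CPM in untreated, 2132 and 2113 CPM in indisulam, 3543 and 3402 CPM in combination and 2919.7 and 2987 CPM in PF-06873600 libraries of A549. The last 2 groups stood above all others, with rises of 0.82 ± 0.05 and 0.59 ± 0.05. In SUM159 it went from 491 and 461 CPM to 1932 and 2011 CPM (2.05 ± 0.07). GRN, which encodes progranulin, moved alike, by 0.98 ± 0.08 with the combination and 2.15 ± 0.06 in SUM159. The acid lipase gene LIPA and the acid ceramidase gene ASAH1 rose by 0.29 ± 0.07 and 0.22 ± 0.06 with the combination and by 1.03 ± 0.06 and 1.59 ± 0.06 in SUM159. SMPD1, the acid sphingomyelinase, did not pass the test with the combination (0.04 ± 0.11) and rose with PF-06873600 in both lines. PPT1, a thioesterase that removes palmitate from proteins, was the exception. It fell in all 4 A549 treatments, from 54.3 and 58.997 CPM to 25.7 and 26.7 CPM with the combination (-1.11 ± 0.09 (SE), edgeR adjusted p = 3.4e-08), and was 183 and 179 CPM in untreated and 195 and 198 CPM in treated SUM159 (0.12 ± 0.05 (SE), edgeR adjusted p = 0.054).

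**Figure D3:**
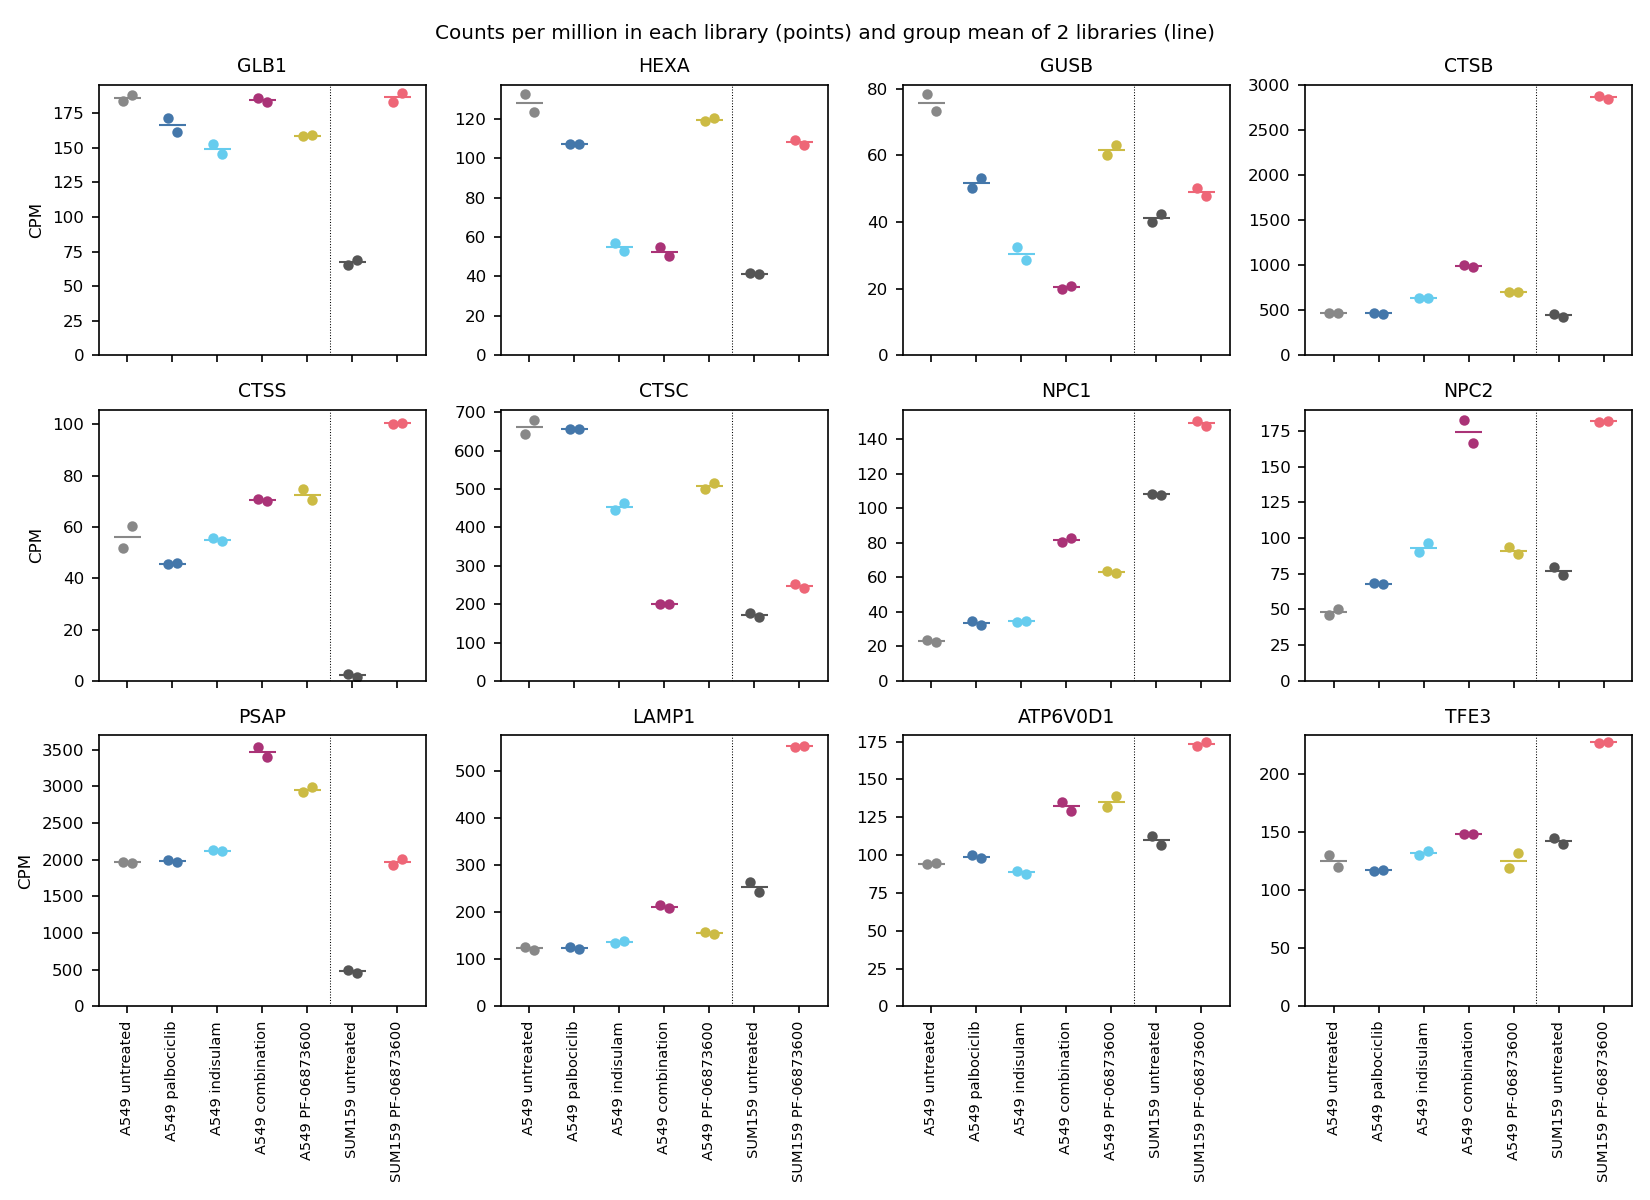
CPM (vertical axes, each starting at 0) of 12 lysosomal genes in every library of the 7 groups; points are libraries, lines are means of 2, and a dotted line parts A549 from SUM159. In A549 the combination holds the highest libraries of CTSB, NPC1, NPC2, PSAP and LAMP1 and the lowest of GUSB and CTSC, and treated SUM159 lies above untreated SUM159 in all 12 panels.

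Among the membrane proteins, the 2 main glycoproteins of the lysosomal membrane rose with the combination. LAMP1 was at 127 and 120.1 CPM in untreated A549, 214 and 209 CPM with the combination and 157 and 154 CPM with PF-06873600, without overlap. It rose by 0.78 ± 0.06 (SE), edgeR adjusted p = 1.8e-08 with the combination, and its rise with indisulam (0.15 ± 0.06) was lost without any of 3 libraries (adjusted p up to 0.20) and under TMM scaling (0.07, adjusted p = 0.35). LAMP2 rose by 0.71 ± 0.06, and the calcium channel gene MCOLN1 by 0.61 ± 0.15. The tetraspanin CD63 had libraries of 981 and 1076 CPM without treatment and 1046 and 993 CPM with the combination, which overlapped. SCARB2, which carries glucocerebrosidase to the lysosome, gave 0.09 ± 0.06 with the combination and passed the test in no A549 treatment against untreated cells. In SUM159 the 5 tested membrane proteins rose, where 38.1% of all genes did. LAMP1 went from 264 and 243 CPM to 551 and 553 CPM and LAMP2 from 348 and 333 CPM to 801 and 812 CPM. The log2 changes of the 5 lay between 0.78 (MCOLN1) and 1.48 (SCARB2).

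The V-ATPase subunits rose by small amounts in A549. Of the 7 tested, 1 rose with palbociclib, 3 with indisulam, 7 with the combination and 3 with PF-06873600. Over all genes, 8.30%, 28.0%, 35.1% and 28.5% were higher in the same order. ATP6V1A, ATP6V1B2, ATP6V1C1 and ATP6V1H belong to the V1 part, which splits ATP on the cytoplasmic side. ATP6V0A1 and ATP6V0D1 belong to the V0 part, which is bound to the membrane, and ATP6AP1 is needed for assembly. With the combination the rises ran from 0.23 to 0.51 on the log2 scale. All 7 rose in SUM159, from 0.24 to 1.06, where 38.1% of all genes rose. ATP6V0D1 was at 93.8 and 94.5 CPM in untreated, 135 and 129 CPM in combination and 132 and 139 CPM in PF-06873600 libraries of A549, and both treated groups stood clear of the untreated one. Its log2 fold changes were 0.49 ± 0.06 (SE), edgeR adjusted p = 3.4e-06 with the combination and 0.52 ± 0.06 with PF-06873600. ATP6V1A rose in all 5 treatments, by 0.18 (indisulam) to 0.65 (SUM159), its palbociclib call being lost without either palbociclib library (adjusted p up to 0.057) and its indisulam call under TMM scaling (0.10, adjusted p = 0.16). The call of ATP6V0A1 with the combination was lost without any of 3 libraries, with 0.11 and adjusted p = 0.15 without untreated library 2, and under TMM scaling (0.15, adjusted p = 0.10).

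The transcription factors changed less than many of the members. TFE3 was at 129.96 and 119.9 CPM in untreated A549 and 148 and 149 CPM with the combination (0.25 ± 0.06 (SE), edgeR adjusted p = 0.0029), and went from 145 and 139.8 CPM to 227 and 228 CPM in SUM159 (0.67 ± 0.05 (SE), edgeR adjusted p = 2.6e-08). TFEB was low, at 6.66 and 4.93 CPM in untreated A549. Both indisulam libraries lay above the untreated ones, but the change did not pass the test (0.37 ± 0.18 (SE), edgeR adjusted p = 0.11). TFEB was at 9.79 and 9.33 CPM with the combination and 7.50 and 9.77 CPM with PF-06873600, the libraries of these 2 treatments also lying above the untreated ones. Palbociclib libraries, at 6.60 and 7.93 CPM, overlapped the untreated ones. TFEB rose by 0.72 ± 0.18 and 0.59 ± 0.18, and the second call was lost without either of 2 libraries (adjusted p up to 0.19). In SUM159 TFEB did not pass the test (0.13 ± 0.12). MITF went from 91.9 and 93.1 CPM to 72.6 and 66.02 CPM with palbociclib and 64.5 and 68.7 CPM with indisulam, with log2 fold changes of -0.42 ± 0.07 and -0.47 ± 0.07. With the combination it was at 76.2 and 80.5 CPM (-0.24 ± 0.07 (SE), edgeR adjusted p = 0.0054), and without combination library 1 the adjusted p was 0.061. These are RNA levels; the place of the proteins in the cell, by which they are mainly controlled, was not measured.

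The combination was next set against each drug alone. Against palbociclib, it raised 33 and lowered 9 members, where 33.5% of all genes were higher and 26.9% lower. Against indisulam, it raised 29 and lowered 5, where 22.0% were higher and 23.9% lower. The members' medians were 0.35 and 0.27, beside 0.05 and -0.02 over all genes. Among members of at least 10 CPM, CTSH (1.39 ± 0.09), NPC2 (1.36 ± 0.07) and NPC1 (1.29 ± 0.07) rose most against palbociclib, and CTSC (-1.71 ± 0.05), GALNS (-1.50 ± 0.14) and GUSB (-1.34 ± 0.09) fell most. Against indisulam the largest rises were those of NPC1 (1.24 ± 0.07), MAN2B1 (1.02 ± 0.09) and GRN (0.93 ± 0.08), and the falls were led by CTSC (-1.18 ± 0.05), PPT1 (-0.68 ± 0.09) and GUSB (-0.58 ± 0.09). GLB1 was higher with the combination than with indisulam (0.31 ± 0.06 (SE), edgeR adjusted p = 0.00045). Against palbociclib it was 0.15 ± 0.06, a call lost under TMM scaling (0.05, adjusted p = 0.45).

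Whether the combination differed from the sum of the single drugs was tested with an interaction term on the log2 scale. It was above the sum for 23 members and below it for 5, where 10.7% of all genes were above and 14.5% below, and the members' median was 0.38 beside -0.02. The comparison with the same untreated libraries enters both single-drug changes and the combination, so the 2 axes of the plot of combination against sum share them. MAN2B1 was at 44.996 and 36.1 CPM in untreated A549, 34.1 and 34.1 CPM with palbociclib, 28.4 and 27.03 CPM with indisulam and 58.3 and 54.5 CPM with both. Among these groups only the combination libraries lay above the untreated ones. MAN2B1 also rose with PF-06873600 in A549 (0.45 ± 0.09). Its interaction was 1.27 ± 0.13 (SE), edgeR adjusted p = 7.3e-06. GRN (0.90 ± 0.12), FUCA1 (0.84 ± 0.13) and NEU1 (0.78 ± 0.12) followed. NEU1 was at -0.36 ± 0.08 with indisulam and 0.30 ± 0.08 with the combination, and FUCA1 at -0.28 ± 0.09 and 0.44 ± 0.09. ASAH1 went from -0.26 ± 0.06 with indisulam to 0.22 ± 0.06 with the combination, the latter with adjusted p = 0.066 under TMM scaling.

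CTSC lay below the sum of the single drugs, with an interaction of -1.16 ± 0.08 (SE), edgeR adjusted p = 6.3e-08, and its log2 fold change with palbociclib alone was -0.01. CTSL and PPT1 were also below the sum, at -0.37 ± 0.08 and -0.35 ± 0.12, and so were ARSB and NAGLU. Without single libraries of this test the calls of ARSB (adjusted p up to 0.12), NAGLU (up to 0.14) and PPT1 (up to 0.18) were lost in most cases. For HEXA, GUSB, TPP1 and IDS the interaction did not pass the test, with values of 0.19 ± 0.10, -0.03 ± 0.12, 0.26 ± 0.09 and -0.06 ± 0.21. Without single libraries the number of members above the sum ran from 17 to 29.

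**Figure D4:**
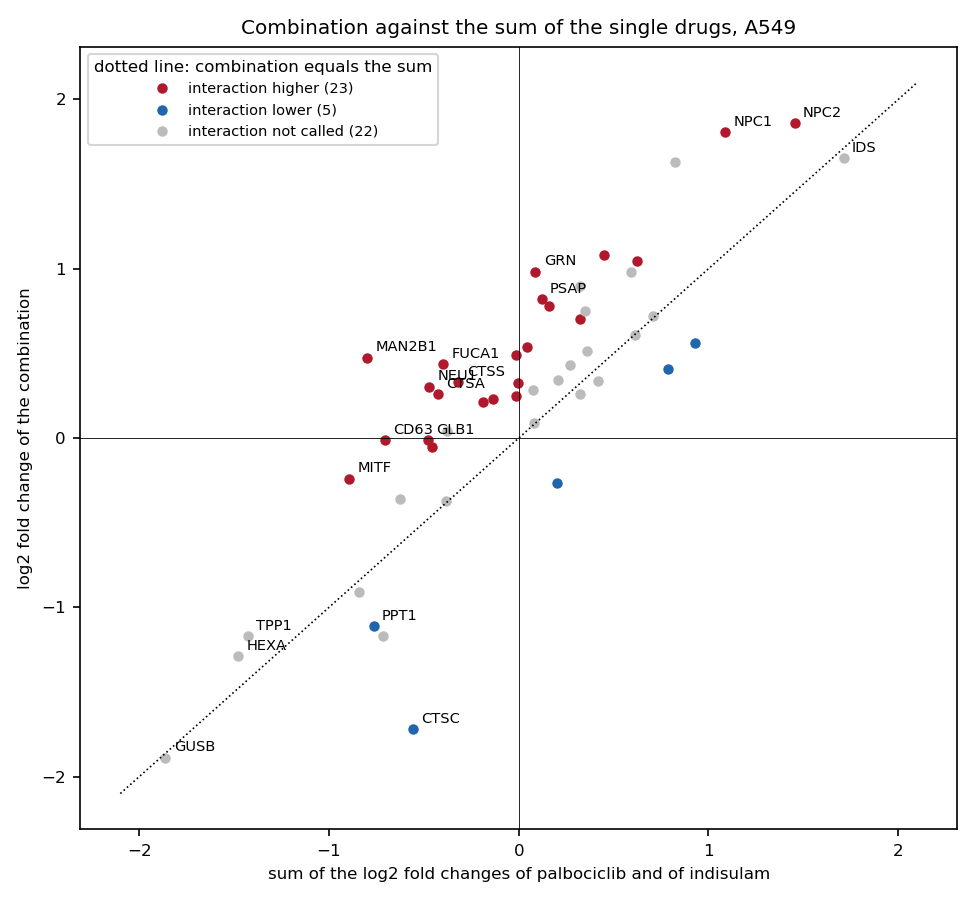
Log2 fold change of the combination (vertical axis) against the sum of the log2 fold changes of palbociclib and of indisulam (horizontal axis) for the 50 tested genes in A549; the dotted line marks equality. Red points (23) had an interaction above 0, blue points (5) below 0, and grey points (22) passed the test in neither direction. MAN2B1 and GRN lie far above the line and CTSC far below it.

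PF-06873600 in A549 was compared with the untreated libraries that also serve the combination, at another time point, so that the 2 sets of calls are not independent. The largest rises with PF-06873600 in A549 were those of NPC1 (1.44 ± 0.07 (SE), edgeR adjusted p = 6.9e-10), IDS (1.30 ± 0.15) and NPC2 (0.92 ± 0.07), and the largest falls were those of PPT1 (-0.45 ± 0.08 (SE), edgeR adjusted p = 0.0003), TPP1 (-0.42 ± 0.06) and CTSC (-0.38 ± 0.05). GALNS and CTSH went in opposite directions: GALNS rose with PF-06873600 and fell with the combination, and CTSH fell with PF-06873600 (-0.33 ± 0.10) and rose with the combination (1.05 ± 0.09). Without treated library 2 the calls of 8 members with PF-06873600 were lost, namely CTSD, CTSF, CTSH, IDUA, LIPA, CD63, ATP6V1H and TFEB (adjusted p from 0.065 to 0.19).

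The response to PF-06873600 differed between the lines for most members. In a model of all libraries, the change in SUM159 exceeded that in A549 for 41 members and was below it for 3, where 25.8% of all 17279 genes tested lay above and 27.2% below. The members' median difference was 1.11 on the log2 scale, beside 0.04 over all genes. CTSS (5.19 ± 0.15 (SE), edgeR adjusted p = 4.5e-15), CTSO (3.98 ± 0.17) and FUCA1 (2.62 ± 0.13) differed most. NPC1 (-0.97 ± 0.09 (SE), edgeR adjusted p = 1.6e-08), IDS (-0.77 ± 0.20) and CTSL (-0.37 ± 0.08) rose more in A549. Over all genes tested in each line, 38.1% were higher in SUM159 and 27.8% lower in A549, and the share with both calls was not computed. For 9 members the drug raised the gene in SUM159 and lowered it in A549: GLB1, GUSB, MANBA, CTSC, CTSF, CTSH, CTSZ, TPP1 and CD63. Of these falls in A549, those of MANBA, CTSF, CTSH and CD63 were lost without 1 library (adjusted p up to 0.051, 0.066, 0.11 and 0.082), and those of MANBA (0.089) and CTSH (0.11) with DESeq2. CTSZ, a carboxypeptidase, went from 189 and 173 to 513 and 475 CPM in SUM159 and from 178 and 190.1 to 150.3 and 146 CPM in A549. The difference between the lines passed the test for TFE3 (0.67 ± 0.08) and not for TFEB (-0.45 ± 0.22) or MITF (0.17 ± 0.10).

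**Figure D5:**
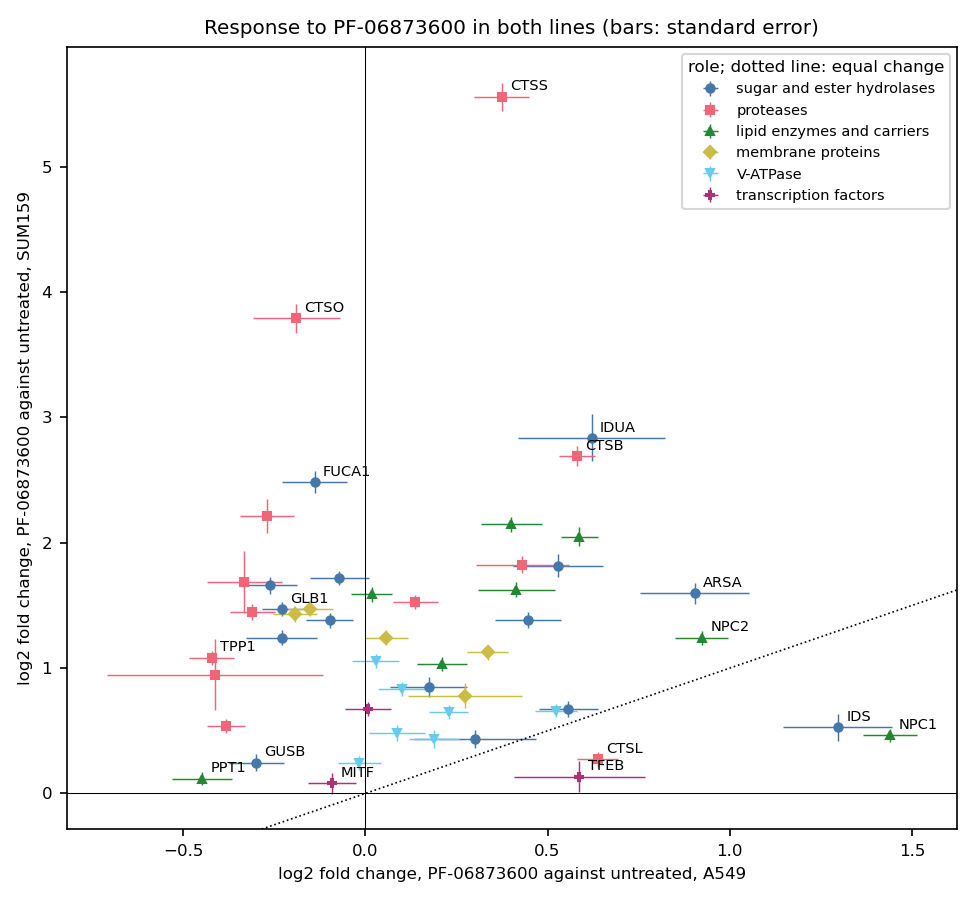
Log2 fold change with PF-06873600 against untreated cells in A549 (horizontal axis) and SUM159 (vertical axis) for the 50 tested genes, with bars of 1 standard error and symbols by role; the dotted line marks equal change. All points lie above 0 on the SUM159 axis and 47 passed the test there, while A549 values lie on both sides of 0; NPC1, IDS, CTSL and TFEB lie below the dotted line.

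The lines also differed before treatment. Untreated SUM159 had 26 members lower and 16 higher than untreated A549, where 36.8% of all genes were lower and 41.9% higher, and the members' median difference was -0.37 beside 0.08. Under TMM scaling all genes shifted by -0.11 in this comparison, and IDS, LIPA, ATP6V0D1 and TFE3 then lost their calls. CTSS (-4.72 ± 0.13), CTSF (-3.56 ± 0.11) and CTSH (-3.52 ± 0.16) were lowest in SUM159 relative to A549, and PSAP (-2.05 ± 0.06) and GLB1 (-1.47 ± 0.06) were also lower. NPC1 (2.21 ± 0.06 (SE), edgeR adjusted p = 1.7e-16), PPT1 (1.67 ± 0.07) and LAMP2 (1.18 ± 0.06) were highest. NPC1, the member with the largest rise in A549 with PF-06873600, was thus at 108 and 108 CPM in untreated SUM159 and 23.9 and 22.7 CPM in untreated A549. No protease was higher in untreated SUM159, and 9 of 12 were lower.

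The 4 treatments of A549 share their untreated libraries, so that calls alike in several of them are not independent. IDS, ARSB, CTSL, NPC1, NPC2 and ATP6V1A were called higher in each of these and in SUM159. The shares of all genes called alike across treatments were not computed. The palbociclib calls of ARSB, CTSL and ATP6V1A rested on single libraries and the indisulam call of ATP6V1A on the scaling, as given with these genes. GUSB, TPP1 and PPT1 were called lower in each treatment of A549, the palbociclib calls of TPP1 and PPT1 being lost without palbociclib library 2 (adjusted p = 0.11 and 0.14).

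The other genes of the pathway, taken from lists written out by function, were counted the same way. Each count is to be read against the shares of all genes. These were 35.1% higher and 30.0% lower with the combination, 28.5% and 27.8% with PF-06873600 in A549, and 38.1% and 35.6% in SUM159. Genes named as leading had the largest called changes among those averaging at least 10 CPM in the higher group. Genes of lower level changed more in some lists. Of 28 further hydrolases tested in A549, 11 rose and 10 fell with the combination, shares of 39.3% and 35.7% near those of all genes, led by CPVL (1.61 ± 0.12) and GM2A (1.03 ± 0.08) among the rises and by AGA (-2.89 ± 0.12) and NAAA (-0.80 ± 0.12) among the falls. AGA, the enzyme that removes sugar chains from asparagine, went from 35.6 and 37.1 CPM to 5.11 and 4.70 CPM. With PF-06873600, 16 of 28 rose and 9 fell in A549, and 23 of 25 rose in SUM159, among them MAN2B2 (1.91 ± 0.06). Of the 14 further V-ATPase genes tested in A549, 11 rose and 1 fell with the combination, led at that level by TCIRG1 (1.37 ± 0.15). In SUM159, 13 of 15 rose and 1 fell, led at that level by ATP6AP2 (1.60 ± 0.06). Genes of lower level in this list reached 6.60 with the combination and 2.60 in SUM159. Of 25 further membrane proteins and transporters, 14 rose and 2 fell with the combination and 19 rose and 2 fell in SUM159, where the channel gene TPCN1 rose by 2.17 ± 0.06.

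Of 16 genes that deliver enzymes to the lysosome, 8 rose and 1 fell with the combination, where 35.1% of all genes rose and 30.0% fell. GNPTAB, which starts the mannose phosphate tag, was among the risen (1.13 ± 0.07). In SUM159, 7 rose and 5 fell, shares of 43.8% and 31.2% beside 38.1% and 35.6% of all genes, the receptor gene IGF2R rising by 1.47 ± 0.08 and CLN6 falling (-0.90 ± 0.08). A list of 17 genes around TFEB held mostly genes of mTORC1 and its regulation, and also the relative TFEC and the phosphatase gene PPP3CB. Of these 17, 4 rose and 7 fell with the combination (23.5% and 41.2%), RRAGB rising by 1.32 ± 0.12 and LAMTOR2 falling (-0.62 ± 0.09). Of 16 tested in SUM159, 7 rose and 4 fell. Of 20 autophagy genes, 8 rose and 4 fell with the combination, 4 rose and 5 fell with PF-06873600 in A549, and 16 rose and 3 fell in SUM159. The autophagy shares in A549, 40% and 20% with the combination and 20% and 25% with PF-06873600, lay near or under those of all genes. Among autophagy genes of at least 10 CPM, the receptor gene OPTN led with the combination (1.59 ± 0.07). It also led in SUM159 (2.42 ± 0.06), going there from 33.95 and 32.003 to 175 and 177 CPM.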

How the data were processed

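The authors sequenced polyA RNA as single-end reads from stranded libraries and deposited, for each library, 1 table of raw counts of reads on Ensembl genes; the submitters' processing notes name HISAT2 2.2.1, HTSeq and GRCh38, and whether counting used strand is not given in the sources used here. The values are whole numbers, not normalized, with no molecular identifiers, so limits from counts cover counting error only. Groups came from the sample labels. GENCODE 44 (hg38) gave a symbol for 60370 of 60683 identifiers, with coordinates and the canonical transcript length used for levels per length. Counts were scaled by each library's total on genes, after the study's size factor. Genes kept by filterByExpr (15780 in A549, 15055 in SUM159, 17279 in both) were tested with edgeR 4.0.16 (quasi-likelihood F test, Benjamini-Hochberg, threshold 0.05) in R 4.3.3; the A549 fit held all 10 A549 libraries, the SUM159 fit 4, and the line comparisons all 14. Standard errors are the log2 fold change divided by the root of F. All 52 members may be named; values by library are given for GLB1, HEXA, GUSB, GAA, LAMP1, TFEB, TFE3, MITF and, per comparison, for the 3 called members that rose most and the 3 that fell most, if the higher group averaged 10 CPM or more. Other members shown by library were chosen after their values were seen. The members and gene lists were chosen with earlier results of these data known. Alternatives were TMM, DESeq2 1.42.0, no filter, a filter at 50 mean counts, a fit of the compared groups alone, the replicate number as a block, and each library left out. Start regions came from RefSeq (GRCh38.p14), and 16 members had none in that table. Plots used Python 3.11.15 and matplotlib 3.10.9.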

Additional observations from a re-analysis of the deposited data

Results flagged for a closer look

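The log2 change with PF-06873600 differed between SUM159 and A549 for 44 of the 50 tested members (test of the difference itself, edgeR quasi-likelihood, adjusted p under 0.05). The values below are SUM159 minus A549 on the log2 scale. The largest differences were CTSS 5.19, CTSO 3.98, FUCA1 2.62, CTSF 2.48, IDUA 2.22, CTSB 2.11 and CTSH 2.01. They were followed by MANBA 1.92, NEU1 1.79, CTSZ 1.76, GRN 1.75, GLB1 1.70, SCARB2 1.63, CD63 1.62, ASAH1 1.57 and TPP1 1.505. A further group lay closer to 1, with HEXA 1.48, GAA 1.47, PSAP 1.46, CTSD 1.40, CTSA 1.39, CTSK 1.36, GALNS 1.28, SMPD1 1.21, LAMP2 1.19 and ATP6AP1 1.03. The smallest positive differences were MAN2B1 0.94, CTSC 0.92, LIPA 0.82, LAMP1 0.79, ATP6V1B2 0.73, ARSA 0.69, NAGLU 0.67, TFE3 0.67, PPT1 0.57, GUSB 0.54, MCOLN1 0.51, ATP6V1A 0.42, ATP6V0A1 0.40, NPC2 0.32 and ATP6V1C1 0.26. The negative differences were CTSL -0.37, IDS -0.77 and NPC1 -0.97.

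For 9 of these members (GLB1, GUSB, MANBA, CTSC, CTSF, CTSH, CTSZ, TPP1 and CD63) the drug raised the gene in SUM159 and lowered it in A549, each past the threshold. The share of all genes with both calls was not computed. Of the falls of these members in A549, those of MANBA, CTSF, CTSH and CD63 were lost without 1 library, and those of MANBA and CTSH with DESeq2. MCOLN1 had the highest adjusted p of the 44, 0.035, and it lost its call (adjusted p from 0.054 to 0.32) without untreated A549 library 1, either PF-06873600 library of A549, untreated SUM159 library 1 or either treated SUM159 library. The differences of ARSA (0.073 without untreated A549 library 1), CTSK (0.055 without PF-06873600 library 2 of A549) and ATP6V1C1 (0.055 without untreated library 1 and 0.057 without treated library 2 of SUM159) were also lost, the values being adjusted p.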

How the results depend on the processing

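Of the results for single genes recomputed under the alternatives, 1316 stayed on the same side of the threshold, 73 lost significance and 14 gained it. With a call in either fit, 0 changed sign. Changes of sign in genes called in neither fit were not counted. Counts of members mostly stayed within 1.5 times. With palbociclib, 6 members were higher and 10 lower; with only the compared groups in the fit these were 3 and 2, and leaving out 1 library gave 3 to 13 higher and 2 to 11 lower. Over all genes the palbociclib counts of 1310 higher and 1168 lower became 543 and 406 with only the compared groups, 816 and 656 without palbociclib library 1, and 779 and 522 without palbociclib library 2, and DESeq2 gave 617 lower. With indisulam, 13 members were higher, and 11 to 21 without 1 library; DESeq2 called 2742 of all genes higher in place of 4420. Combination against indisulam had 5 members lower, 3 with DESeq2 and 3 to 4 without 1 library. The interaction had 5 members below the sum, 2 with DESeq2, 3 with only the compared groups and 2 to 5 without 1 library, and 2281 of all genes below against 1494 with DESeq2. The causes of these moves were not tested, except that only the compared groups and 1 library fewer leave fewer residual degrees of freedom. The replicate numbers are only shared numbers: the correlation of deviations of same-numbered libraries ran from -0.34 (palbociclib and untreated) to 0.29 (indisulam and untreated). With the replicate block, 33 members were higher and 10 lower in the combination, 6 and 10 with palbociclib, 13 and 18 with indisulam, 32 and 9 against palbociclib, 29 and 5 against indisulam, 22 and 4 in the interaction, 21 and 10 with PF-06873600 in A549, 47 and 0 in SUM159, 16 and 26 between untreated lines, and 41 and 3 in the line difference; the calls lost were those of NAGLU in the combination, ASAH1 against palbociclib, and PPT1 and TFE3 in the interaction. With the palbociclib numbers crossed, a pairing chosen after seeing the data, 8 were higher and 11 lower. CLN3 and ATP6V0C had too few counts to be tested.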
